A study of Mus musculus with 6 samples.

Results

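The sortilin family is the group of membrane receptors that carry a VPS10 domain, and its 5 mouse genes, Sort1, Sorl1, Sorcs1, Sorcs2 and Sorcs3, were followed in RNA-seq of bone marrow mesenchymal stem cells (BMMSCs) after knockdown of Tet1 and Tet2. All 5 were found by symbol among the 36870 distinct gene symbols of the deposited table. The family was chosen by the RPKM values of this comparison, in which Sort1 was among the largest increases, so the difference of each member between control and siRNA is given as a description, without a test. BMMSCs were the adherent cells grown from femur and tibia marrow of C57BL/6 mice, labelled passage 2. The 3 control libraries came from cells given a non-targeting siRNA according to the labels, whereas the RNA-sequencing methods call them vehicle-treated, and the 3 siTet1/Tet2 libraries came from cells given siRNAs against Tet1 and Tet2. Nothing in the labels says whether the 3 libraries of a group came from separate animals or cultures, so the spread between them may be technical, and so may what the p-values measure.

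Receptors with a VPS10 domain bind ligands in the lumen of the secretory pathway or at the cell surface and carry them between the trans-Golgi network (TGN), endosomes, lysosomes and the plasma membrane. Sortilin, the product of Sort1, takes prosaposin and other proteins to the lysosome, clears progranulin, and binds pro-neurotrophins and lipoprotein lipase. SorLA, the product of Sorl1, is best known for carrying the amyloid precursor protein and for regulating lipoprotein lipase, and the SorCS receptors are studied mainly in neurons. In vascular smooth muscle cells, sortilin is known to load tissue-nonspecific alkaline phosphatase, the product of Alpl, into extracellular vesicles.

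Values are RPKM, the reads on a gene scaled to its length and to the mapped reads of the library, as the authors deposited them. Their lowest listed value was 0.001 RPKM, which is less than a single read of any family gene. The table gives no read totals, so depth was estimated from the steps between low values of genes with 1 annotated transcript, at 32400000 to 37200000 reads in the control libraries and 35700000 to 38600000 in the siTet1/Tet2 libraries. Between 55.3% and 59.7% of those values lay within 0.1 of a whole read, against 20% by chance at a depth fixed beforehand, so the read numbers below are estimates. The knockdown was seen for Tet2, at 2.57, 4.08 and 3.71 RPKM in control BMMSCs and 0.358, 0.238 and 0.202 RPKM in siTet1/Tet2 BMMSCs. Tet1 was near the detection limit, between 0.032 and 0.098 RPKM in control BMMSCs and between 0.001 and 0.01 RPKM in the siTet1/Tet2 libraries. Tet3 averaged 7.03 and 7.66 RPKM, overlapping groups.

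The cultures held RNA of more than stromal cells. Of the 12 stromal markers, Thy1 and Lepr were near the lowest listed value, with group means of at most 0.063 RPKM. In the control libraries the other stromal markers averaged between 0.911 RPKM (Nt5e) and 488 RPKM (Col1a1). The macrophage markers averaged between 5.71 RPKM (Cd163) and 4439 RPKM (Lyz2) there, with the pan-leukocyte gene Ptprc at 52.6 RPKM. The summed level of the 12 stromal markers ran from 1027 to 1473 RPKM in control BMMSCs and from 190 to 318 RPKM in the siTet1/Tet2 libraries, and 7 of the 10 tested fell and 1 rose. The 10 macrophage markers summed to between 5561 and 7289 RPKM in control and between 12465 and 15375 RPKM in the siTet1/Tet2 libraries, with 6 higher, 2 lower and 2 that did not pass. Lyz2, which averaged 11321 RPKM after the siRNAs, made up most of that sum and of its rise, while the median log2 fold change of the 10 markers was 0.24 and Fcgr1 fell with -1.93. Ptprc, at 53.0 RPKM on average after the siRNAs, and Adgre1 did not pass (adjusted p = 0.949 and 0.0624 from limma). The 7 osteoclast markers summed to between 68.3 and 75.3 RPKM in control and between 155.9 and 174.1 RPKM in the siTet1/Tet2 libraries, with 3 of 5 tested higher. Atp6v0d2, at 57.6 and 139.4 RPKM on average, made up most of that sum and of its rise. The 4 adipocyte markers, all higher, summed to between 245.0 and 301.4 RPKM in control and between 546 and 703 RPKM in the siTet1/Tet2 libraries. Most of this sum and of its rise was Fabp4, at 277.0 and 615.7 RPKM on average. Neutrophil, endothelial and lymphoid markers were low: the 6 neutrophil markers summed to at most 16.2 RPKM, with S100a9 at the lowest listed value in all libraries, the 4 endothelial markers to at most 2.58 RPKM and the 4 lymphoid markers to at most 0.049 RPKM. Of the 2 neutrophil markers tested 1 was higher and 1 lower, and of the 3 endothelial markers 1 was higher, 1 lower and 1 did not pass. Of all 13266 genes tested, 44.5% had an adjusted p under 0.05 from limma, 14.7% higher and 29.8% lower. Whether the marker counts differ from these shares was not tested. The sums of the stromal, macrophage, osteoclast and adipocyte markers differed between the same groups as the receptors and cargo described below. The part of these markers in those differences was not tested. In bulk RNA, fewer cells of a type and less RNA per cell cannot be told apart.

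Sort1 had the highest level of the family in every library and the largest difference between the groups. It stood at 10.7, 10.9 and 10.2 RPKM in control BMMSCs, an estimated 2252 to 2723 reads, and at 64.6, 62.0 and 58.1 RPKM in the siTet1/Tet2 libraries, an estimated 14189 to 16912 reads. The groups were far apart and did not overlap. The mean went from 10.6 ± 0.389 RPKM to 61.6 ± 3.25 RPKM (SD, n = 3 each), a ratio of 5.81, or 2.43 on the log2(RPKM + 1) scale (standard error 0.07). Among the 13266 genes tested, those that averaged 0.1 RPKM or more, this was the increase of rank 2, between Gsta3, a glutathione S-transferase, at 3.05 and Serpinb2, a member of the serpin family, at 2.34 on this scale. With a pseudocount of 0.1 the rank was 12 and with 0.01 it was 27. In the control libraries Sort1 lay near the middle of the genes tested, at percentiles of level between 52.1 and 54.3, and in the siTet1/Tet2 libraries between 90.6 and 91.7. The gene lies on chromosome 3 of GRCm38 from 108284082 to 108361511 on the plus strand, with 3 transcripts in GENCODE M21. The use of strand is not given, and its locus overlaps the antisense gene Gm12523 over 762 bases and Gm43099, of unknown coding status on the same strand, over 5241 bases, neither of which has a row in the table.

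Sorl1 was also higher in every siTet1/Tet2 library, by far less. Its level was 3.86, 4.58 and 4.70 RPKM in control BMMSCs and 7.19, 6.44 and 7.01 RPKM in the siTet1/Tet2 libraries, and the groups did not overlap. The means were 4.38 ± 0.452 and 6.88 ± 0.393 RPKM (SD, n = 3 each), a ratio of 1.57, or 0.55 on the log2 scale (standard error 0.09), the increase of rank 603. Sorl1 lies on chromosome 9 from 41964720 to 42124297 on the minus strand, where the antisense gene Gm16214, without a row in the table, overlaps 11499 bases.

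Sorcs2 was the only SorCS gene with enough signal to be tested and was lower in the siTet1/Tet2 libraries. It was at 0.287, 0.33 and 0.342 RPKM in control BMMSCs, an estimated 61 to 63 reads, and at 0.104, 0.117 and 0.176 RPKM in the siTet1/Tet2 libraries, an estimated 23 to 36 reads. The groups did not overlap, and the control mean was 2.42 times the siTet1/Tet2 mean, while the difference on the log2(RPKM + 1) scale was -0.22 (standard error 0.06), since a pseudocount of 1 compresses differences at such levels. With a pseudocount of 0.01 it was -1.24. Sorcs2 lies on chromosome 5 from 36017180 to 36398139.

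Sorcs1 and Sorcs3 were at the edge of detection and were not tested. Sorcs1, on chromosome 19 from 50143299 to 50678646, was at 0.029, 0.028 and 0.031 RPKM in control BMMSCs, an estimated 7 to 8 reads, and at 0.001, 0.007 and 0.018 RPKM in the siTet1/Tet2 libraries, an estimated 0 to 5 reads. Sorcs3, on the same chromosome from 48206025 to 48805505, was at 0.033 RPKM in control replicate 1 and at the lowest listed value in the other 5 libraries. No ratio is given for either gene at these read numbers. Of the 5 members, 3 passed the filter on low values. All 3 had an adjusted p under 0.05, as did 44.5% of all genes tested, of which 14.7% were higher and 29.8% lower. Of the 3, Sort1 alone also passed a fold change over 2 on the log2(RPKM + 1) scale at an unadjusted p under 0.05 (Sorcs2, with a ratio of 2.42 in RPKM, missed it on that scale), as did 6.58% of all genes tested, 0.95% higher and 5.63% lower. The groups did not overlap for any of the 3, nor did they for 55.7% of all genes tested, 19.8% with every siTet1/Tet2 library above the control libraries and 35.9% below. The comparison chose the family, so nothing is read from these counts.

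**Figure D1:**
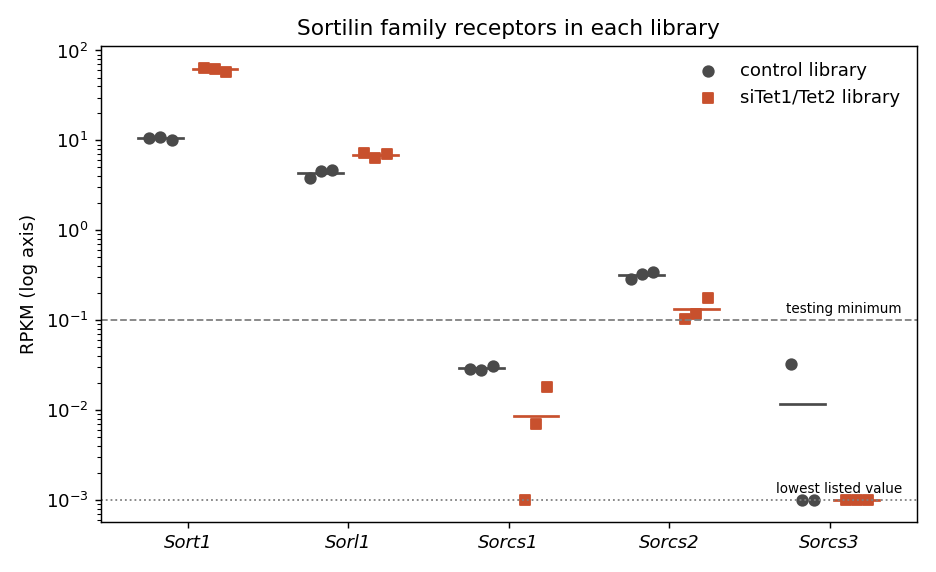
RPKM (log axis) of the 5 sortilin family genes in each of 3 control libraries (grey circles) and 3 siTet1/Tet2 libraries (orange squares), with the group mean as a short line, the lowest listed value (dotted) and the minimum mean for testing (dashed). Sort1 sits near 10.6 RPKM in control BMMSCs and near 61.6 RPKM after the siRNAs, Sorl1 moves from 4.38 to 6.88 RPKM on average, and Sorcs1 and Sorcs3 lie below 0.1 RPKM in every library.

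RPKM is scaled by length, so the members can be set against each other within a library. The order was Sort1, Sorl1 and Sorcs2 in all 6 libraries, each above the next by more than the spread between replicates, whereas Sorcs1 and Sorcs3 could not be ordered, since Sorcs3 was above Sorcs1 in control replicate 1 and both were at the lowest listed value in siTet1/Tet2 replicate 1. The summed RPKM of the family went from 15.3 ± 0.474 to 68.6 ± 3.27 (SD, n = 3 each). Sort1 made up 71.8%, 68.9% and 66.7% of that sum in the control libraries and 89.9%, 90.4% and 89.0% in the siTet1/Tet2 libraries. The share of Sorl1 went from 28.5% ± 2.49 to 10.0% ± 0.671 although its own level was higher, and the 3 SorCS genes together went from 2.35% ± 0.0954 to 0.209% ± 0.0790. Sort1 was thus 2.44 ± 0.308 times Sorl1 in the control libraries and 8.97 ± 0.669 times Sorl1 in the siTet1/Tet2 libraries.

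Tet enzymes act on methylated cytosine, which in mammals lies mostly in CpG dinucleotides, so the CpG content before the start sites is shown for the members with a RefSeq promoter sequence (GRCm38.p6). Of the 5 members 3 had one, Sorl1, Sorcs1 and Sorcs3, and those of Sort1 and Sorcs2 were not used here. The 250 bases before the annotated start are printed 5′ to 3′ on the strand of the gene, with every CpG (the letters CG, which read the same on both strands) in capitals. They are shown because the 3 members differ widely in it.
Sorl1, chr9:42124298-42124547, minus strand: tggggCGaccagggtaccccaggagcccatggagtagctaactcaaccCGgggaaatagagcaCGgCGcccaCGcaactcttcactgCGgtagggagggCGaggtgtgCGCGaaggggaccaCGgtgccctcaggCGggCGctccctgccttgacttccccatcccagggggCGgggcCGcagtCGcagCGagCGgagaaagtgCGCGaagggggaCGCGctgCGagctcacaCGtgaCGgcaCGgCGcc
Sorcs1, chr19:50678647-50678896, minus strand: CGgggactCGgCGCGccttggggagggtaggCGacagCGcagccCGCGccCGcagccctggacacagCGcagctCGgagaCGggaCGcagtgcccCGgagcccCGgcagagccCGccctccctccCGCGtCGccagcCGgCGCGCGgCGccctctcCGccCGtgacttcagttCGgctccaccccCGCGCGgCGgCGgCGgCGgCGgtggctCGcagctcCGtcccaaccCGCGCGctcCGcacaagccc
Sorcs3, chr19:48205775-48206024, plus strand: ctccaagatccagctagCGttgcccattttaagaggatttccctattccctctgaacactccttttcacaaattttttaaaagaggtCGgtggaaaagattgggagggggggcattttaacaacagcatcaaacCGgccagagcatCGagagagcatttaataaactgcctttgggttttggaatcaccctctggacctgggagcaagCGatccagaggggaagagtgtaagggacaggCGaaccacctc
The Sorl1 window held 26 CpGs, the Sorcs1 window 41 and the Sorcs3 window 6, with an observed over expected CpG ratio of 0.87, 1.05 and 0.41. The median over 32851 RefSeq promoter windows of the same length was 6, and 92.1% of them held at least 1 CpG. At least as many CpGs as before Sorl1 were found in 9.59% of all promoters, and at least as many as before Sorcs1 in 1.09%. A second annotated start of Sorl1, at chr9:42077214-42077463, held 9 CpGs. The most CpG-rich window of the 3 belonged to a gene that was barely detected, and methylation was not measured in these libraries.

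Next to Sort1, Psrc1 and Sars fell, and the other tested genes did not pass. Of the 5 protein-coding genes on each side, 6 were expressed highly enough to be tested. By limma with Benjamini-Hochberg adjustment 2 were lower, beside 29.8% of all genes tested, and 0 were higher, beside 14.7% (0 of 6 were higher at an unadjusted p under 0.05 as well). With 6 genes, neither count is read as a difference from all genes. Psma5, a proteasome subunit whose start site lies 27.2 kb away, was at 12.5, 10.957 and 9.31 RPKM in control BMMSCs and 9.93, 11.9 and 10.2 RPKM in the siTet1/Tet2 libraries, overlapping groups (adjusted p = 0.874 from limma). Psrc1, a spindle-associated gene 99.8 kb on the other side, fell from 8.14 to 4.82 RPKM on average (log2 fold change -0.65, standard error 0.08, adjusted p = 0.000435 from limma). Sars, the cytosolic seryl-tRNA synthetase, fell from 63.1 to 41.5 RPKM (log2 fold change -0.59, standard error 0.08, adjusted p = 0.000416 from limma). Amigo1, Cyb561d1 and Atxn7l2 did not pass, with log2 fold changes of -0.0028, 0.07 and -0.15, though Cyb561d1 was higher after quantile normalization (adjusted p = 0.0127). Celsr2, a gene of the cadherin superfamily 131.5 kb away, was under the minimum. It was at 0.021, 0.037 and 0.025 RPKM in control and 0.113, 0.075 and 0.107 RPKM in the siTet1/Tet2 libraries. It passed as higher when no filter was set (adjusted p = 0.0326 from limma). Sypl2, Mybphl and 5330417C22Rik were at most 0.05 RPKM in every library.

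**Figure D2:**
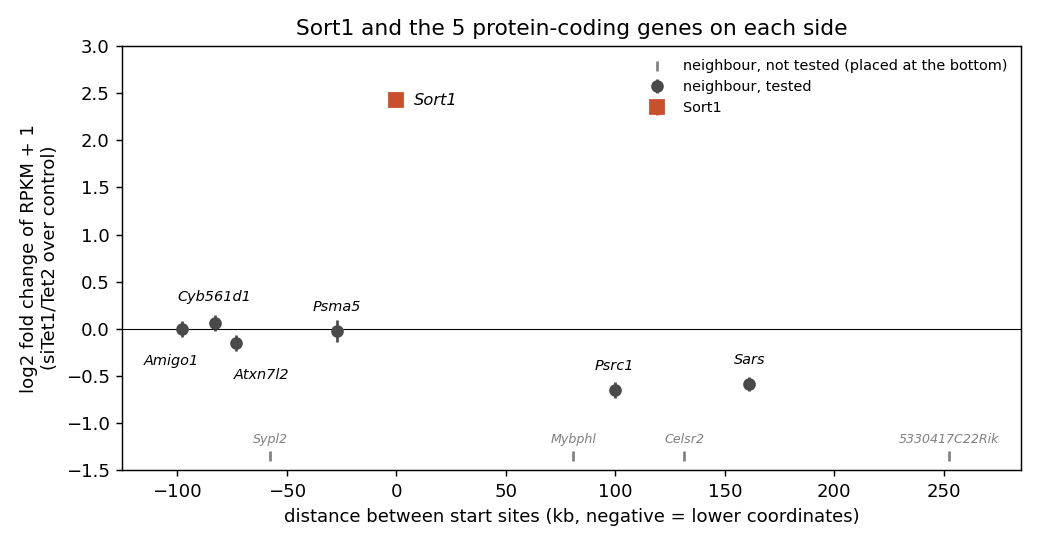
Log2 fold change of RPKM + 1 (siTet1/Tet2 over control, n = 3 each) of Sort1 (orange square) and its tested neighbours (grey circles) against the distance between start sites in kb, with bars for the limma standard error and ticks at the bottom for 4 neighbours that were not tested. Sort1 stands at 2.43, while the 6 tested neighbours lie between -0.65 and 0.07.

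Around Sorl1, 5 of 10 neighbours were tested. Hspa8, the constitutive cytosolic chaperone, fell from 333.6 to 256.1 RPKM (log2 fold change -0.37, adjusted p = 0.0117 from limma), a call that was lost without control replicate 2 (adjusted p = 0.0518), without a filter on low values (0.109) and after scaling by the median ratio (adjusted p = 0.0766). Ubash3b, Sc5d, Tbcel and Arhgef12 did not pass, with log2 fold changes between -0.17 and 0.13, though Tbcel was higher after median ratio scaling (adjusted p = 0.0291) and after quantile normalization (0.018), and Ubash3b after the latter (0.0475). The other 5, Bsx, Jhy, Crtam, Tecta and Grik4, were at most 0.043 RPKM in every library.

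The other genes of the pathway were taken from 5 lists of ligands and soluble cargo, co-receptors and membrane cargo, proteolytic processing, transport between TGN and endosomes, and other routes to the lysosome. Of 75 listed genes 63 were tested, and 36 of these, or 57.1%, had an adjusted p under 0.05 from limma, 20 higher and 16 lower, against 44.5% of all genes tested. Over all genes the split of 14.7% higher and 29.8% lower depended on the scaling, since 1953 genes were higher and 3952 lower as deposited, 2855 and 2960 after median ratio scaling, 3607 and 2627 after quantile normalization, and the median over all genes moved from -0.09 to 0.06 on the log2 scale under the last of these. Without a filter on low values, all genes entered both the limma fit and the adjustment. In that setting the calls of Lpl, Ctsd, Ctsh, Lrp1, Bace1, Adam10, Furin, Gnptab and Igf2r given below were lost.

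Ligands and soluble cargo moved in both directions. Of 26 listed genes 20 were tested, of which 8 rose, 7 fell and 5 did not pass (5 rose and 6 fell without a filter on low values). The median log2 fold change was -0.03 against -0.09 over all genes tested. As shares, 40% rose and 35% fell, beside 14.7% and 29.8% of all genes tested, a difference that was not tested. Apoe, an apolipoprotein that binds receptors of this family and of the LDL receptor family, was at 3985, 3856 and 3310 RPKM in control BMMSCs and 10273, 10272 and 9833 RPKM in the siTet1/Tet2 libraries. This was the largest rise of the list (log2 fold change 1.45, standard error 0.16, adjusted p = 0.000195 from limma), and it was 0.26 after quantile normalization (adjusted p = 0.00382). Psap, which encodes the saposin precursor that sortilin takes to the lysosome, was at 4488, 4521 and 4411 RPKM and at 8905, 8471 and 7958 RPKM, and the groups did not overlap (log2 fold change 0.92, standard error 0.15, adjusted p = 0.00172 from limma). After quantile normalization the direction of Psap turned, to a log2 fold change of -0.23 (adjusted p = 0.0113). Lpl, lipoprotein lipase, rose from 880.3 ± 113.8 to 1201 ± 40.8 RPKM (SD, n = 3 each; log2 fold change 0.46, adjusted p = 0.0113 from limma), and lost the call after quantile normalization (adjusted p = 0.344). Grn, the gene of progranulin, whose uptake sortilin mediates, was at 1244 and 1211 RPKM on average, overlapping groups (log2 fold change -0.04, standard error 0.09, adjusted p = 0.738 from limma), and it was lower after quantile normalization (-0.30, adjusted p = 0.0112). Among other lysosomal cargo, picked out here after the values were seen, Gm2a, Ctsd and Ctsh rose with log2 fold changes of 0.70, 0.67 and 0.59, while Smpd1, acid sphingomyelinase, was at 17.7 and 15.0 RPKM on average and did not pass.

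Il6 and Plau were among the genes of the list that fell. Il6, the inflammatory cytokine, was at 2.99, 2.76 and 2.63 RPKM and at 0.072, 0.451 and 0.001 RPKM, the last of these the lowest listed value (log2 fold change -1.71, standard error 0.14, adjusted p = 4.04e-05 from limma), a difference of -5.23 with a pseudocount of 0.01. Plau, urokinase, a ligand of SorLA, fell from 220.7 ± 20.9 to 84.6 ± 3.61 RPKM (log2 fold change -1.37, standard error 0.08, adjusted p = 8.52e-06 from limma). The neurotrophin Bdnf, chosen after its values were seen because its precursor is a classical sortilin ligand, fell from 1.81 to 0.316 RPKM on average (log2 fold change -1.09, adjusted p = 0.000216 from limma). Gdnf fell as well, Lrpap1 and Tgfb1 rose, and App, Cntf and Clcf1 did not pass. Apoa5, Ntf3 and Nts were at the lowest listed value in all 6 libraries, and Apob and Ifng were under the minimum.

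**Figure D3:**
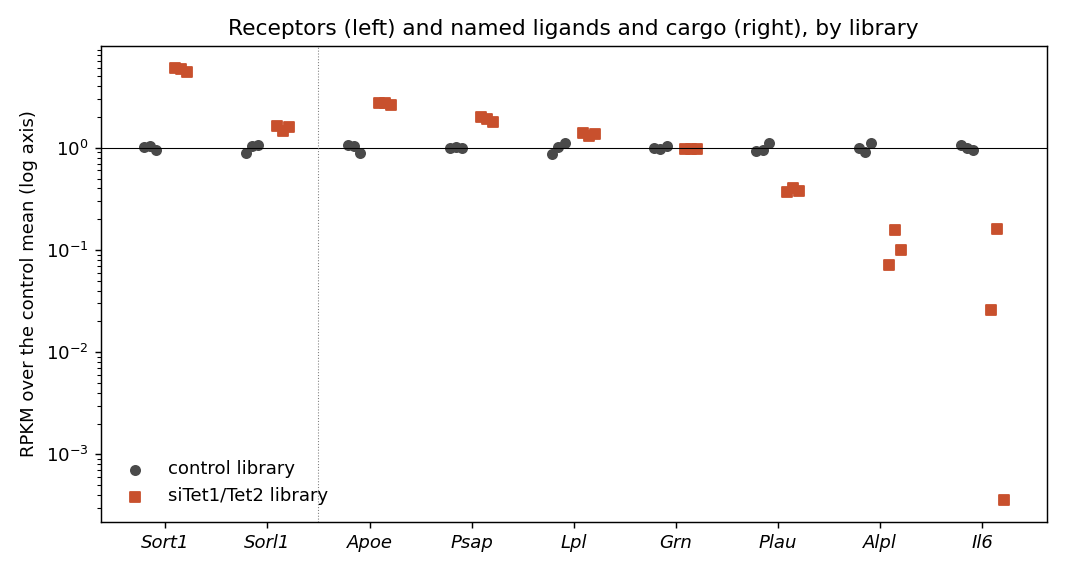
RPKM divided by the control mean (log axis) in each control (grey circles) and siTet1/Tet2 library (orange squares), for Sort1 and Sorl1 and, right of the dotted line, for 7 ligands and cargo genes. Sort1 lies highest at a mean ratio of 5.81, Apoe follows at 2.72, Grn stays at 0.973, and the lowest Il6 point is a library at the lowest listed value.

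Co-receptors for neurotrophins were barely present. Ngfr, the neurotrophin receptor that pairs with sortilin, was at 0.055, 0.079 and 0.063 RPKM in control and 0.015, 0.045 and 0.091 RPKM in the siTet1/Tet2 libraries, and Ntrk2 and Ntrk3 were at most 0.021 RPKM. Of the 13 listed co-receptors and membrane cargo 6 were under the minimum, Gfra1 and Slc2a4 among them. Of the 7 tested, 2 rose, 3 fell and 2 did not pass, with a median log2 fold change of -0.08. Beside them, 14.7% of all genes tested rose and 29.8% fell, and with 7 genes no difference from these shares is read. Alpl, tissue-nonspecific alkaline phosphatase, was at 3.81, 3.48 and 4.30 RPKM in control BMMSCs and 0.274, 0.603 and 0.386 RPKM in the siTet1/Tet2 libraries, the opposite direction to Sort1 (log2 fold change -1.78, standard error 0.11, adjusted p = 1.26e-05 from limma), and with a pseudocount of 0.01 the difference was -3.23. Plaur, the urokinase receptor, fell from 60.8 to 37.4 RPKM (log2 fold change -0.69, adjusted p = 0.000208 from limma). Lrp1, a large endocytic receptor, rose from 232.0 to 334.6 RPKM (log2 fold change 0.55, adjusted p = 0.0214 from limma), and Bace1, the beta-secretase that SorLA keeps from its substrate, fell from 8.58 to 6.30 RPKM (log2 fold change -0.39, adjusted p = 0.0282 from limma). The call of Lrp1 was lost in 5 of the 6 fits that left out a library, all but that without control replicate 3 (adjusted p 0.0506 to 0.0757 from limma), and after TPM scaling (0.0525), and that of Bace1 without control replicate 3 (0.061), siTet1/Tet2 replicate 1 (0.0832) or siTet1/Tet2 replicate 2 (0.105) and after both median ratio scaling (0.0682) and quantile normalization (0.104). The number of these genes that rose was 1 in each of those 5 fits and after TPM scaling. Il6ra rose, and Insr and Cntfr did not pass.

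The proteases that cut the receptors changed by small amounts. All 8 listed genes were tested, of which 4 rose, 2 fell and 2 did not pass, with a median log2 fold change of 0.18. Over all genes tested 14.7% rose and 29.8% fell, and with 8 genes no difference from these shares is read. Psen2, a catalytic subunit of gamma-secretase, was at 58.6, 55.4 and 54.8 RPKM in control BMMSCs and 80.4, 82.1 and 78.8 RPKM in the siTet1/Tet2 libraries (log2 fold change 0.51, standard error 0.06, adjusted p = 0.000185 from limma). Ncstn, its substrate-binding subunit nicastrin, fell from 84.7 to 64.5 RPKM (log2 fold change -0.39, adjusted p = 0.00102 from limma), the opposite direction. Furin, the convertase that removes the sortilin propeptide, fell from 51.7 to 42.0 RPKM (log2 fold change -0.29, adjusted p = 0.00889 from limma), and did not pass after median ratio scaling (0.0568) or quantile normalization (0.0746). Adam10, a sheddase of the family, rose from 59.6 to 74.0 RPKM (log2 fold change 0.31, adjusted p = 0.00878 from limma), which was lost after TPM scaling (0.0564). Adam17, another sheddase, rose from 40.2 to 46.2 RPKM (log2 fold change 0.19, adjusted p = 0.023 from limma), a call lost without control replicate 1 (0.0612), control replicate 2 (0.0554), siTet1/Tet2 replicate 1 (0.09) or siTet1/Tet2 replicate 3 (0.0709). Aph1a and Psenen did not pass. Without any 1 of those 4 libraries 2 of the 8 genes rose, and after TPM scaling 1 did.

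Among the genes of the machinery that moves the receptors, sorting nexins and 2 adaptor genes passed the test. Of 22 tested genes 3 rose, 4 fell and 15 did not pass, so that 31.8% passed beside 44.5% of all genes, with a median log2 fold change of 0.03. Vps35, the core retromer subunit that returns sortilin from endosomes to the TGN, was at 106.9, 119.1 and 114.8 RPKM in control and 114.6, 108.3 and 107.9 RPKM in the siTet1/Tet2 libraries, overlapping groups (log2 fold change -0.04, standard error 0.06, adjusted p = 0.625 from limma). Vps26a, Vps26b and Vps29, the other retromer subunits listed, had log2 fold changes of 0.016, 0.011 and 0.040. The GGA adaptors bind the cytoplasmic tail of sortilin at the TGN. Gga2 rose from 14.8 to 18.5 RPKM (log2 fold change 0.30, adjusted p = 0.00775 from limma), while Gga1 and Gga3 had log2 fold changes of 0.07 and 0.06 and did not pass. Gga1 passed after median ratio scaling (adjusted p = 0.0278 from limma) and after quantile normalization (0.0319). The largest difference of the list was that of Snx2. Snx2, part of the membrane coat that works with retromer, was at 177.1, 178.0 and 177.3 RPKM in control BMMSCs and 93.9, 94.4 and 101.7 RPKM in the siTet1/Tet2 libraries (log2 fold change -0.87, standard error 0.06, adjusted p = 1.73e-05 from limma), and Snx6 fell from 63.4 to 46.0 RPKM (log2 fold change -0.46, adjusted p = 0.000324). Snx27, which sends cargo back to the cell surface, rose from 14.7 to 21.3 RPKM (log2 fold change 0.51, adjusted p = 0.000789 from limma), and Snx5 rose as well, while Snx1 and the AP-1 subunit Ap1b1 fell. After median ratio scaling 7 genes of this list rose and 2 fell, and after quantile normalization 6 rose and 3 fell. Without control replicate 3 there were 5 that rose, and without control replicate 2 there were 2 that fell.

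Other receptors bring enzymes to the lysosome beside sortilin. Of the 6 genes listed for them, 3 rose and 0 fell, beside 14.7% and 29.8% of all genes tested. The 3 others had higher means that did not pass, none lower at an unadjusted p under 0.05. The median log2 fold change was 0.18, and with 6 genes no difference from all genes is read. Scarb2, the gene of LIMP-2, which carries glucocerebrosidase, was at 84.9, 87.8 and 81.3 RPKM in control BMMSCs and 140.8, 140.4 and 132.2 RPKM in the siTet1/Tet2 libraries, with no overlap (log2 fold change 0.70, standard error 0.06, adjusted p = 5.52e-05 from limma). The cation-independent mannose 6-phosphate receptor, Igf2r, rose from 49.5 ± 9.09 to 61.9 ± 2.29 RPKM with overlapping groups (log2 fold change 0.33, adjusted p = 0.0456 from limma). Gnptab, which makes the tag those receptors recognise, rose from 41.2 to 47.4 RPKM (log2 fold change 0.20, adjusted p = 0.0274 from limma). The cation-dependent receptor M6pr was at 125.6 ± 7.14 and 139.5 ± 4.28 RPKM and did not pass (log2 fold change 0.15, adjusted p = 0.0879 from limma), though it did after median ratio scaling (0.0188) and after quantile normalization (0.00571). Without control replicate 1, control replicate 2 or any of the 3 siTet1/Tet2 libraries, 1 gene of this list passed, as it did after TPM scaling and without a filter on low values, whereas 5 passed after median ratio scaling and after quantile normalization.

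**Figure D4:**
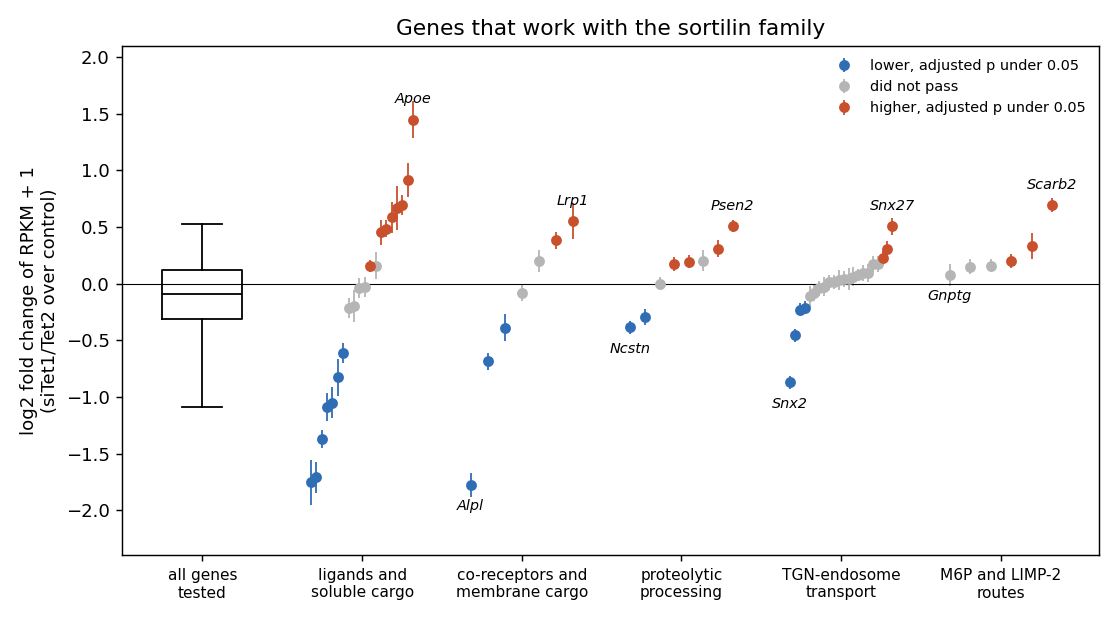
Log2 fold change of RPKM + 1 (siTet1/Tet2 over control, n = 3 each) of each tested gene in the 5 pathway lists, with bars for the limma standard error and colours for the call at an adjusted p under 0.05. The box shows the middle and quartiles of all 13266 genes tested, with whiskers at percentiles 5 and 95. Apoe stands highest at 1.45 and Alpl at -1.78, whereas 15 of the 22 transport genes did not pass.

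Genes whose level followed that of Sort1 most closely over the 6 libraries were S1pr1, Tpp1, Pltp, Cdk19 and Tnfaip2, by Pearson's r of log2(RPKM + 1) between 0.9992 and 0.9997. With 2 groups of 3 such a value mostly reflects the difference between the groups, and 210 genes had an r over 0.99. Tpp1, the lysosomal tripeptidyl peptidase, was at 65.6, 64.8 and 63.9 RPKM in control BMMSCs and 137.9, 133.9 and 127.5 RPKM in the siTet1/Tet2 libraries, so that, as for Sort1, siTet1/Tet2 replicate 3 was the lowest of its group. S1pr1, a receptor for sphingosine 1-phosphate, went from 14.9 to 23.1 RPKM and Pltp, the phospholipid transfer protein gene, from 176.2 to 323.4 RPKM on average, ratios of 1.55 and 1.84 against 5.81 for Sort1. For Sorl1 the closest were Nceh1, Naip6, Mpv17l, Tbc1d8 and Usp3, with r between 0.9938 and 0.9984, and 22 genes had an r over 0.99. The genes of both sets were chosen by this correlation, so a shared order of libraries follows in part from the choice. In those named for Sorl1, as in Sorl1 itself, control replicate 1 was the lowest control library. It was at 97.2 RPKM for Nceh1 and 3.58 RPKM for Naip6 (a gene with near-identical paralogs, so its value is uncertain). After the siRNAs, siTet1/Tet2 replicate 2 was the lowest.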

How the data were processed

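RNA-seq was examined in 3 control and 3 siTet1/Tet2 libraries. The authors trimmed adaptors, mapped the paired reads to GRCm38, estimated abundance with DNASTAR Lasergene v15.0 and deposited RPKM values on a linear scale, a unit their methods call FPKM. Annotation release, use of strand and handling of reads matching several places are not given in the sources used here. The table also holds the authors' p-values, which were not used. Of 37 symbols listed more than once, the row highest on average was used, and 27 rows whose symbol had become a number or date were not named.

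Genes that averaged 0.1 RPKM or more were tested on log2(RPKM + 1) with limma 3.58.1 in R 4.3.3 (lmFit, eBayes with trend), two-sided, unpaired, with Benjamini-Hochberg adjustment over 13266 genes. The smallest exact permutation p for 1 gene alone is 0.1 with 3 libraries in each group. On simulated libraries of this comparison (13266 genes), 94 of 100 genes changed by 1 and 100 of 100 changed by 2 on the log2 scale were recovered, with 6 of 13066 unchanged genes called. The changed genes were drawn from those averaging over 2 on the log2(RPKM + 1) scale, with independent normal noise. Recovery at lower levels, or with as many changed genes as were called here, was therefore not examined. Depth, promoters and figures were handled in Python 3.11.15.

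The replicate numbers of the labels were checked as pairs: deviations from the group means correlated across genes with 0.149, 0.117 and 0.462 for replicates 1, 2 and 3, all over 0.1, so a fit with the replicate block was added. The pairing comes from these values alone. Control replicate 1 with siTet1/Tet2 replicate 2 reached 0.332, and control replicate 2 with siTet1/Tet2 replicate 1 reached 0.205. Both were above the values of replicates 1 and 2 as pairs, while the other pairs of unlike number were negative. Replicates correlated with r between 0.992 and 0.997.

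The members, lists and rules were chosen with earlier results of these data known. Named by rule were all members, Tet1, Tet2 and Tet3, the 4 largest called changes without overlap in each list, 15 genes set by role, the neighbours and the 5 most similar genes, and other list members account for the counts, in which some genes not reported here by name are included. Alternatives were other pseudocounts, filters, scalings, no trend, the block and each library left out. Positions are from GENCODE M21.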

Additional observations from a re-analysis of the deposited data

How the results depend on the processing

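Sort1 kept its direction under all 15 alternatives, with a log2 fold change between 2.40 and 2.54, as did Sorl1, between 0.48 and 0.72. Sorcs2 stayed negative, between -1.24 and -0.11, and could not be fitted with a mean of at least 1 RPKM. The share of Sort1 in the family, 69.1% in the control and 89.7% in the siTet1/Tet2 libraries, moved by less than 1 SD under every alternative run for it. With the replicate block, 6716 genes were called in place of 5905, 37 pathway genes in place of 36 and 8 lower ligand genes in place of 7, while the named genes kept their calls and directions. The pathway lists together held 36 called genes, 26 to 40 over all alternatives.

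Of 40 other named genes, 19 kept call and direction under every alternative, and 532 of 600 single values did; the cause of the changes was not tested. Without a filter on low values, where all genes entered both the limma fit and the adjustment, 3744 genes were called, and 0 genes next to Sorl1. Altered genes numbered 873, and 1728 and 1958 with pseudocounts of 0.1 and 0.01. The share of called genes that were lower was 66.9%, and 50.9% after median ratio scaling, 42.1% after quantile normalization. Quantile normalization gave 3 called genes next to Sorl1, in place of 1, and leaving out a library 0 to 1. Directions turned with median ratio scaling for Grn (0.080), Vps35 (0.077), Amigo1 (0.062) and Psma5 (0.084), with quantile normalization for Psap (-0.23), Vps35 (0.028), Amigo1 (0.24), Atxn7l2 (0.095) and Psma5 (0.13), and with TPM scaling for Ubash3b (-0.026) and Sc5d (-0.0062). Leaving out a library moved Amigo1 between -0.058 and 0.054 and Psma5 between -0.13 and 0.068. Of these turned values, that of Psap alone passed.

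Values near the lowest listed level, those of Sorcs1, Sorcs3 and Ngfr among them, rest on a few reads and were not tested.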
